A study of Rattus norvegicus with 10 samples.

Results

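Chemokine receptors guide leukocytes along gradients of chemokines, and 9 of them were followed here in splenic M2 macrophages of rats with glomerulonephritis. They were chosen as a list of receptors of macrophages and of the leukocytes around them: *Ccr1*, *Ccr2*, *Ccr3*, *Ccr7*, *Ccrl2*, *Cx3cr1*, *Cxcr3*, *Cxcr4* and *Ackr3*. Of these, 6 had a row among the 9003 genes of the deposited table. The other 3, *Ccr2*, *Ccr3* and *Ackr3*, were not analysed here. Levels are in CPM, read counts scaled to a common library size, and every gene of the table reached 1 CPM in at least 1 library.

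M2 macrophages were isolated with CD11b/c beads and sorted by flow cytometry from the spleen of WKY /Ncrj rats into 4 groups. Control rats (n = 2 libraries) were in the physiological condition. GN rats (n = 2) had glomerulonephritis, induced with the mouse monoclonal antibody TF78 against the glomerular basement membrane, and were given no adipose-derived mesenchymal stem cells (ASCs). The EVposi (EV+, n = 3) and EVnega (EV-, n = 3) macrophages both came from nephritic rats given human ASCs whose membranes carried the dye DiD. EV+ cells were positive for the dye, read by the study as transfer of extracellular vesicles (EVs), and EV- cells were negative. Rats of the nephritis model were female and 7 to 12 weeks old. There was no group of ASC-treated rats without nephritis, so EV+ and EV- both carry nephritis and ASC treatment. The methods call the libraries biological replicates. How many rats went into each library, and when the spleens for RNA were taken, is not given in the sources used here. If the libraries were not from separate rats, the p-values measure only the spread between these samples.

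Most chemokine receptors couple to inhibitory G proteins and are turned off by receptor kinases, arrestins and regulators of G-protein signalling. *Cxcr4*, the receptor of Cxcl12, holds cells in bone marrow and lymphoid tissue. *Cx3cr1*, the receptor of fractalkine (Cx3cl1), marks patrolling monocytes and many tissue macrophages. *Ccr1* binds Ccl3 and Ccl5, *Ccr7* steers dendritic cells and lymphocytes to Ccl19 and Ccl21, and *Cxcr3* is the receptor of Cxcl9, Cxcl10 and Cxcl11 on T and NK cells. *Ccrl2* is an atypical receptor that binds chemerin without signalling and presents it to the chemerin receptor Cmklr1.

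The values are CPM scaled by the TMM method, and a single read was worth the same in every gene of a library. The number of reads per library on the genes of the table lay between 19270515 and 26617093. A level of 3 reads, taken as the floor of detection, corresponded to 0.113 to 0.153 CPM, a limit that covers counting error only. CPM is not divided by gene length, so levels are compared between groups and not between genes. Groups were compared with limma on log2(CPM + 1) in 1 fit of all 10 libraries, and a gene was called at a Benjamini-Hochberg FDR under 0.1 over all 9003 genes. Differences are on the log2(CPM + 1) scale, which understates those of genes near 1 CPM. Means are given ± SD. In bulk RNA, fewer cells that express a gene and less of its RNA per cell cannot be told apart.

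The macrophage label was checked against 13 macrophage markers, of which 11 were in the table, with a summed level between 24983 and 25414 CPM in control and between 29023 and 31180 CPM in the other groups. *Csf1r*, *Cd68*, *Adgre1* and *Lyz2* each had at least 1025 CPM in every library, and most of the sum was *Lyz2*. *C1qa*, *C1qb* and *C1qc*, from the same list, did not exceed 8.59, 11.2 and 8.96 CPM in any library. *Cd163* and *Mrc1*, surface markers often used for M2 macrophages, did not exceed 1.81 CPM and had no read in some libraries, and *Vsig4* and *Mertk* had no row. The summed level of 13 NK and T cell markers was 743.8 CPM in EV- replicate 1, 108.5 in replicate 2 and 54.7 in replicate 3, and between 18.8 and 42.5 CPM in the other 7 libraries. B cell markers (5 of 9 in the table), mostly *Cd79b*, summed to between 90.6 and 111 CPM in control and between 45.1 and 78.8 CPM in the other groups. Dendritic cell markers (7 of 10) summed to between 30.8 and 45.6 CPM and plasma cell markers (4 of 5) to between 2.78 and 11.6 CPM. Neutrophil markers (7 of 10), mostly *Csf3r*, summed to between 549.7 and 555 CPM in control and between 609 and 744 CPM in the other groups. Among the neutrophil markers, *S100a9* did not exceed 19.05 CPM and *Camp* 13.22 CPM in any library. Eosinophil, basophil and mast cell markers (2 of 11) summed to between 0.803 and 3.54, and erythroid and platelet markers (2 of 6) to between 1.19 and 7.26 CPM. The 6 of 7 blood monocyte markers in the table summed to between 7725 and 9478 CPM.

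*Ccrl2* and *Cxcr4* were the members that changed. Both were lower in GN, EV+ and EV- macrophages than in control. The level of *Cx3cr1* lay between 374 and 477 CPM in all 10 libraries. *Ccr7*, *Ccr1* and *Cxcr3* were near the lower limit of the table, and none of them was called in any comparison. Among the 4 groups, 2 of the 6 members were called (*Ccrl2*, adjusted p = 0.000663, and *Cxcr4*, adjusted p = 0.00684, by limma's F test), against 2.57% of all genes.

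**Figure D1:**
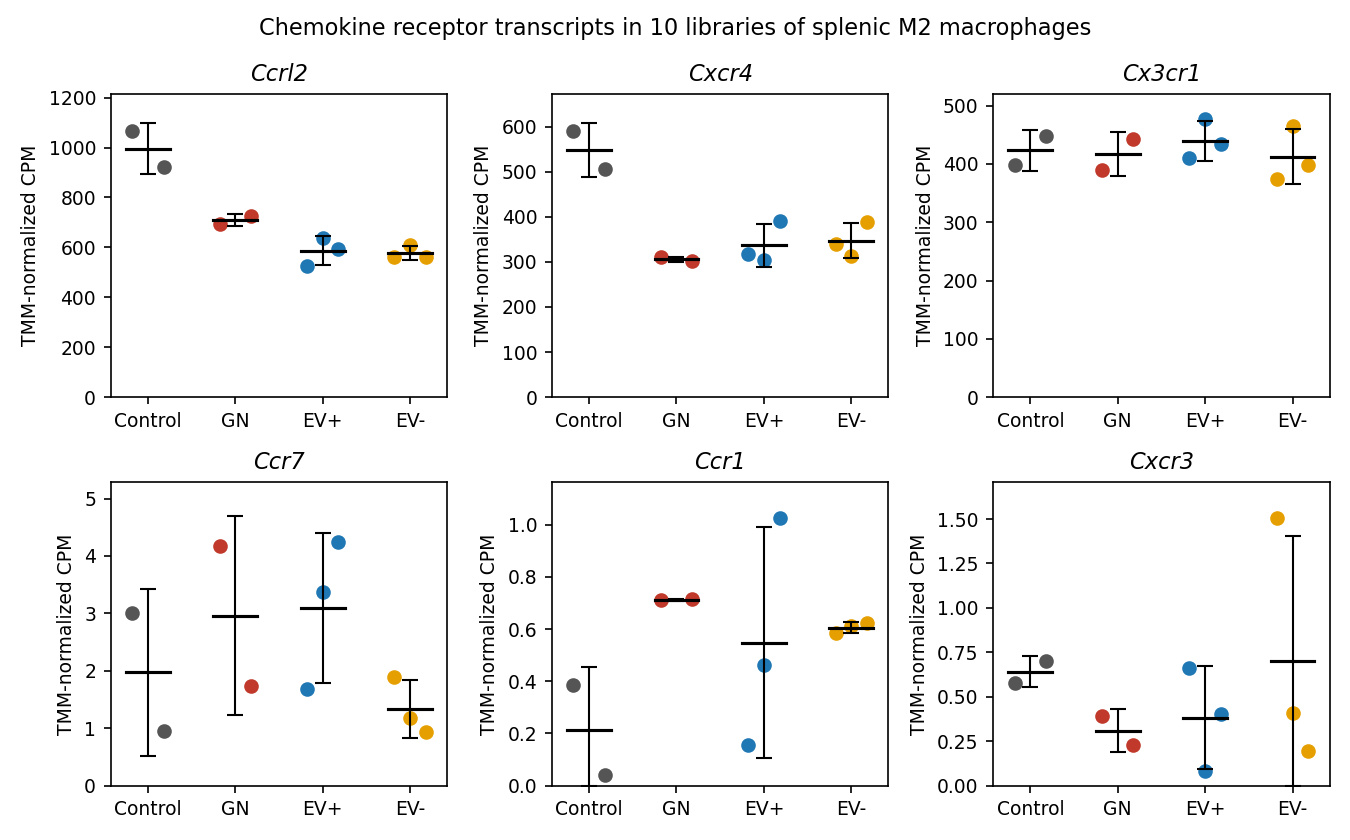
Level of the 6 chemokine receptors in each library, in TMM-normalized CPM, with each panel on its own axis from 0. Points are libraries, black lines are group means and bars are SD (cut at 0). *Ccrl2* and *Cxcr4* were highest in both control libraries, whereas the groups overlap for *Cx3cr1* and *Ccr7*.

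The promoter windows of *Ccrl2* and *Cxcr4* are shown because these genes fell together in GN. They run 5′ to 3′ along the gene, from 250 bases before to 50 bases after the gene start, and are taken from RefSeq on the GRCr8 build, whereas the reads were aligned to rn6. The window of *Ccrl2* is chr8:119914924-119915223 and that of *Cxcr4* is chr13:42634239-42634538, both on the minus strand. Capitals mark matches, on either strand, to the TATA box and the GC box described below the sequences.
Ccrl2: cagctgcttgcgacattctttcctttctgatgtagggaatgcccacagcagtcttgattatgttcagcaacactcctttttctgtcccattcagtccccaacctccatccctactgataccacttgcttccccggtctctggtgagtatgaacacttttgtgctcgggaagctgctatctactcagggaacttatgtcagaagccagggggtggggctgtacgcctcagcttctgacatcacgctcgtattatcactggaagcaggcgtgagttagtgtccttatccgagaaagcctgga
Cxcr4: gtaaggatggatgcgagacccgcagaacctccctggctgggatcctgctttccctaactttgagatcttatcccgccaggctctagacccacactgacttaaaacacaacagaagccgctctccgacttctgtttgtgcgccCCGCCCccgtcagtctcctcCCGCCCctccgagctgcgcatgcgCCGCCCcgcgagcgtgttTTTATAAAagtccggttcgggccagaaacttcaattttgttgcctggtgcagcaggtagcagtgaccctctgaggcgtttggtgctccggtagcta
Every motif was searched on both strands of 33465 windows of this length. The TATA box, TATAAA, was in 14.2% of all windows. In that of *Cxcr4* it spanned positions -44 to -39 from the gene start and overlapped a second match on the opposite strand. The GC box, GGGCGG, was in 33.1% of all windows and matched 3 times on the opposite strand in that of *Cxcr4*. The *Ccrl2* window held neither motif, and the CCAAT box, CCAAT, found in 37.5% of all windows, was in neither gene's window. The NF-κB consensus (7.52% of all windows) was in neither. The AP-1 site, spelled TGANTCA, was in neither (7.33%). The cyclic AMP response element, spelled TGACGTCA, was in neither (1.83%). The core of the hypoxia response element, spelled ACGTG, was in neither (19.3%). A match or its absence describes these letters only. RefSeq windows were found for 5 of the 6 members in the table, all but *Ccr7*.

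The comparison of GN with control asks how nephritis alone moved these receptors. *Cxcr4* and *Ccrl2* fell, 2 of 6 members. Of all genes, 1.75% were called, with 0.822% lower in GN. The values of GN and control did not overlap for 4 members, lower in GN for *Cxcr4*, *Ccrl2* and *Cxcr3* and higher for *Ccr1*. Over all genes, 22.0% did not overlap with GN lower and 21.9% with GN higher, so that non-overlap of 2 against 2 libraries was common. The median difference was -0.17 over the 6 members and -0.00014 over all genes.

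In control replicates 1 and 2 *Cxcr4* reached 590.1 and 505 CPM, against 310.0 and 301 CPM in GN replicates 1 and 2. Every GN library lay far below every control library. The mean was 548 ± 60.1 CPM in control and 305 ± 6.40 CPM in GN, and the difference was -0.84 (SE 0.125, 95% interval -1.11 to -0.57, adjusted p = 0.00543 by limma). The level fell by 44.0%. Its reads numbered between 6137 and 15318 per library, so counting error was small beside the spread of replicates. The call held when any single library was left out, with an adjusted p between 0.00331 and 0.0826, and under every other alternative, where it reached at most 0.0926.

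The control libraries held 1068 and 924 CPM of *Ccrl2*, and the GN libraries 693 and 727 CPM. Both GN libraries again lay below both control libraries, by a smaller margin than for *Cxcr4*. The difference was -0.48 (SE 0.0992, 95% interval -0.70 to -0.27, adjusted p = 0.0331 by limma), and the level fell by 28.5%. This call rested on few libraries. It was lost without control replicate 1 (adjusted p = 0.283), without GN replicate 1 (0.247), without GN replicate 2 (0.180) and in a limma fit that left out the intensity trend (0.188). Over the other alternatives its adjusted p reached down to 0.000593.

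Beside these falls, the summed macrophage markers, mostly *Lyz2*, were higher in every nephritic library than in both control libraries. The same held for the summed neutrophil markers, mostly *Csf3r*. Singly, *Lyz2*, *Csf1r*, *Adgre1* and *Itgam* were higher in every nephritic library, whereas *Cd68* and *Aif1* overlapped control. *Cd68* had 1316 and 1373 CPM in control and between 1163 and 1466 CPM elsewhere. *Aif1* had 590 and 687 CPM in control and between 460 and 628 CPM elsewhere. The summed B cell markers, mostly *Cd79b*, were lower in every nephritic library. Erythroid and platelet markers summed to at most 1.61 CPM in control and at least 3.28 CPM in the other groups. The part of these markers in the *Cxcr4* and *Ccrl2* results was not tested.

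*Ccrl2* and *Cxcr4* also fell in the comparisons of EV+ and EV- with control, which share the control libraries with the comparison above and are therefore not independent of it. *Ccrl2* had 524, 639 and 595 CPM in EV+ replicates 1, 2 and 3 and 562, 610 and 562 CPM in the EV- replicates. All 6 values lay below both control and both GN libraries. Against control the difference was -0.76 in EV+ (SE 0.0906, adjusted p = 0.000288 by limma), where the level fell by 41.1%, and -0.78 in EV- (SE 0.0906, adjusted p = 0.000266), where it fell by 41.8%. These calls held under every alternative tried, with an adjusted p of at most 0.0228. In each comparison 2 of 6 members were called, both lower. Of all genes, 3.63% were called in EV+, with 1.81% lower, and 2.84% in EV-, with 1.56% lower. Values that did not overlap and lay lower than control were found for 15.6% of all genes in EV+ and 14.1% in EV-. The median difference of the 6 members was -0.11 in EV+ and -0.16 in EV-, and that of all genes -0.00013 and 0.0070.

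Between EV+ or EV- and GN, the lower *Ccrl2* level did not pass the threshold. The difference was -0.28 in EV+ (95% interval -0.48 to -0.086, unadjusted p = 0.00796, adjusted p = 0.515 by limma) and -0.30 in EV- (95% interval -0.49 to -0.10, unadjusted p = 0.00554, adjusted p = 0.347). The values did not overlap those of GN in either group, as held for 11.8% of all genes in EV+ and 12.8% in EV- in this direction. The adjusted p lay between 0.295 and 0.998 in EV+ and between 0.146 and 0.909 in EV- over the alternatives, those without 1 library included. The order of the mean levels was control, GN, EV+ and EV-, in which the neighbours EV+ (586 ± 58.0 CPM) and EV- (578 ± 27.6 CPM) differed by less than either SD.

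*Cxcr4* had 316, 303 and 391 CPM in EV+ replicates 1, 2 and 3 and 340.2, 313 and 389 CPM in the EV- replicates. All 6 values were below the control libraries, and replicate 3 was the highest in both groups. Against control the difference was -0.70 in EV+ (SE 0.115, adjusted p = 0.00388 by limma), where the level fell by 38.6%, and -0.66 in EV- (SE 0.115, adjusted p = 0.00978), where it fell by 36.6%. The EV+ call held under every alternative, with an adjusted p of at most 0.0788. The EV- call was lost without control replicate 1 (adjusted p = 0.139) and without the intensity trend (0.111). The EV- call otherwise had an adjusted p down to 1.02e-05.

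Unlike *Ccrl2*, *Cxcr4* had a slightly higher mean in both groups from ASC-treated rats than in GN. The difference from GN was 0.13 in EV+ (95% interval -0.11 to 0.38, adjusted p = 0.885 by limma) and 0.18 in EV- (95% interval -0.067 to 0.43, adjusted p = 0.770). All EV- values lay above both GN values, as in 12.6% of all genes, while the EV+ values overlapped them. With the replicate number as a block, the difference from GN was 0.034 in EV+ and 0.081 in EV-. The order of the means was control, EV- (347 ± 38.7 CPM), EV+ (337 ± 47.2 CPM) and GN, and the last 3 did not differ beyond the spread that the test measured.

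The ratio of *Ccrl2* to *Cxcr4* CPM within a library follows from these values and is given as a description. It was 1.81 and 1.83 in control and 2.24 and 2.42 in GN. It was 1.66, 2.11 and 1.52 in EV+ and 1.65, 1.95 and 1.44 in EV- replicates 1, 2 and 3. Both GN libraries had a higher ratio than any other library, and replicates with the same number in EV+ and EV- lay close to each other.

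**Figure D2:**
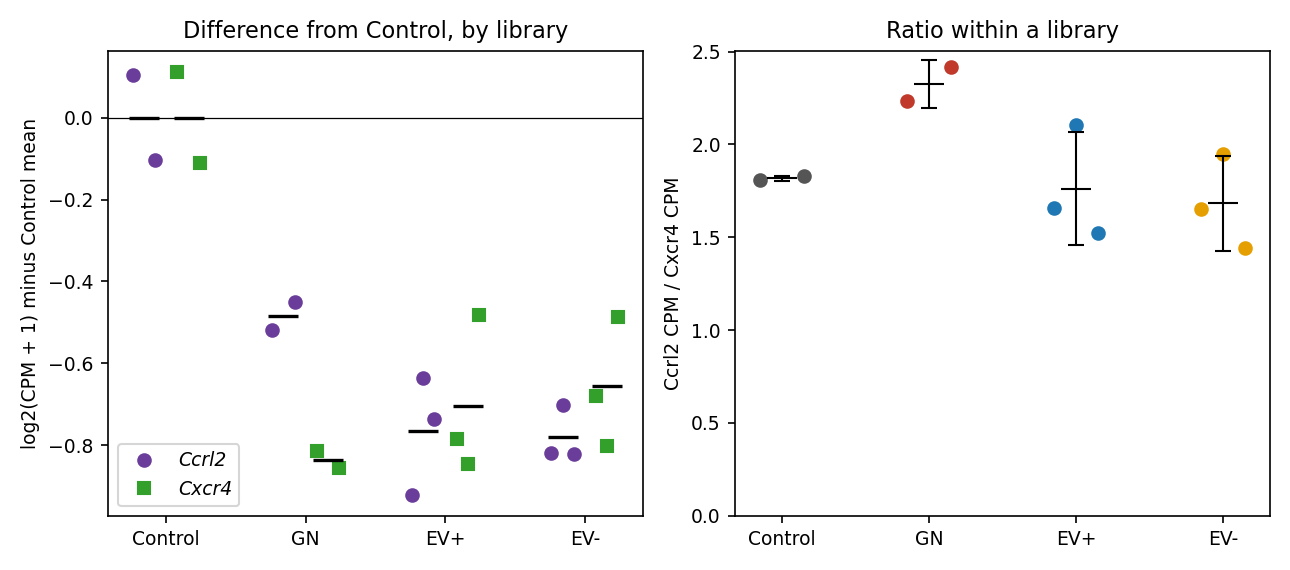
Left, log2(CPM + 1) of *Ccrl2* (circles) and *Cxcr4* (squares) in each library minus the mean of the control libraries, with group means as black lines. *Ccrl2* lay lower in EV+ and EV- than in GN, whereas *Cxcr4* reached its lowest mean, -0.84, in GN. Right, ratio of *Ccrl2* to *Cxcr4* CPM in each library with mean and SD, which was highest in the GN libraries (2.24 and 2.42).

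Genes whose pattern was most like that of a member were sought among genes with a mean of at least 5 CPM, by Pearson's r of log2(CPM + 1) over the 10 libraries. This is a description, since all genes share the libraries and the group differences. For *Ccrl2* the closest were *Gadd45b* (r = 0.979) and *Ier5* (r = 0.975), both immediate early response genes. For *Cxcr4* they were *Nfkbia* (r = 0.959), the NF-κB inhibitor IκBα, and *Mcl1* (r = 0.945), a survival factor of the Bcl2 family. *Gadd45b* had a mean of 607 CPM in control, 366 in GN, 307 in EV+ and 310.1 in EV-. *Nfkbia* had 3995, 2597, 2728 and 2617 CPM in the same groups.

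*Cx3cr1*, the fractalkine receptor, reached 399 and 449 CPM in the control libraries, against 390.4 and 443 CPM in GN. It had 409, 477 and 434 CPM in EV+ replicates 1, 2 and 3 and 374, 466 and 398 CPM in the EV- replicates. The 4 groups overlapped throughout, and replicate 2 was the highest library within each group. The difference between GN and control was -0.024 (95% interval -0.26 to 0.22, adjusted p = 0.972 by limma), and that between EV+ and EV- was 0.095 (95% interval -0.10 to 0.29, adjusted p = 1.0). Within the pairs of EV+ and EV- libraries that share a number, EV+ was higher in 3 of 3, by 0.13, 0.033 and 0.12, and with the pairs as a block in these 6 libraries the SE was 0.0453 and the adjusted p 0.648. The order of the means was EV+ (440 ± 34.1 CPM), control (424 ± 35.3), GN (417 ± 37.5) and EV- (413 ± 47.4), and neighbours differed by less than either SD. The genes most like it were *Cog8* (r = 0.947), a subunit of a Golgi tethering complex, and *Cd22* (r = 0.941), a sialic acid-binding inhibitory receptor.

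The 2 control libraries had 3.0 and 0.949 CPM of *Ccr7*, and the 2 GN libraries 4.18 and 1.73 CPM. It had 1.68, 3.37 and 4.24 CPM in EV+ replicates 1, 2 and 3, and 1.90, 1.17 and 0.934 CPM in the EV- replicates. Replicates within control, GN and EV+ thus differed by more than the group means did, and EV+ replicate 1 lay within the EV- values. The mean was 3.10 ± 1.30 CPM in EV+ and 1.33 ± 0.501 CPM in EV-, a difference of 0.78 (SE 0.34, unadjusted p = 0.0386, adjusted p = 1.0 by limma). At this unadjusted level 4.57% of all genes passed. Over the alternatives without a library left out, the adjusted p was at least 0.551. With the same replicate number compared, EV+ was lower than EV- in replicate 1 (-0.11) and higher in replicates 2 (1.01) and 3 (1.44).

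*Ccr7* is a receptor of activated dendritic cells and of lymphocytes. The summed level of the dendritic cell markers lay between 31.9 and 38.1 CPM in EV+ and between 30.9 and 39.4 CPM in EV-, mostly *Zbtb46*. Of the defining dendritic cell markers, *Flt3* did not exceed 3.50 CPM, *Clec9a* 1.17 CPM and *Fscn1* 3.93 CPM in any library, and *Xcr1* had no row. Their part in the *Ccr7* values was not tested. The genes most like *Ccr7* were *Slc25a45* and *Milr1* (r = 0.887 for both). The order of its means was EV+, GN (2.96 ± 1.73 CPM), control (1.98 ± 1.45 CPM) and EV-, and neighbours differed by less than the larger of their SDs.

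*Ccr1* was represented by 1 to 23 reads per library. In control it stood at 0.385 and 0.0412 CPM, the latter a single read, and in GN at 0.710 and 0.716 CPM. It had 0.156, 0.463 and 1.03 CPM in EV+ replicates 1, 2 and 3 and 0.583, 0.612 and 0.623 CPM in the EV- replicates. Both GN libraries exceeded both control libraries, as held for 21.9% of all genes, while the EV+ values overlapped those of every other group. The difference between GN and control was 0.51 (95% interval -0.20 to 1.23, adjusted p = 0.667 by limma). It was 0.31 without control replicate 2, 1.63 with a pseudocount of 0.1 and up to 1.73 by the count tests on recovered reads, and the adjusted p was at least 0.524 in every alternative. The order of the means was GN (0.713 ± 0.00399 CPM), EV- (0.606 ± 0.0204), EV+ (0.548 ± 0.441) and control (0.213 ± 0.243).

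*Cxcr3* was represented by 2 to 31 reads per library. In control it stood at 0.578 and 0.701 CPM and in GN at 0.394 and 0.226 CPM. It had 0.664, 0.0842 and 0.401 CPM in EV+ replicates 1, 2 and 3 and 1.51, 0.408 and 0.195 CPM in the EV- replicates. The highest value was that of EV- replicate 1, the library with 743.8 CPM of NK and T cell markers, and their part in the *Cxcr3* value was not tested. The difference between EV+ and EV- was -0.25 (95% interval -0.91 to 0.42, adjusted p = 1.0 by limma), and it was 0.071 without EV- replicate 1. The order of the means was EV- (0.703 ± 0.704 CPM), control (0.639 ± 0.0872), EV+ (0.383 ± 0.290) and GN (0.310 ± 0.119), in which neighbours differed by less than the larger of their SDs. In EV- replicate 1 *Prf1*, which encodes perforin, had 335 CPM and *Ncr1*, an NK cell receptor, 8.70 CPM. *Cd3e*, a T cell receptor subunit, had 2.09 CPM there. In the other libraries *Prf1* did not exceed 51.4 CPM, *Ncr1* 1.63 CPM and *Cd3e* 0.311 CPM. Levels are not compared between genes, so these values do not tell NK cells from T cells.

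**Figure D3:**
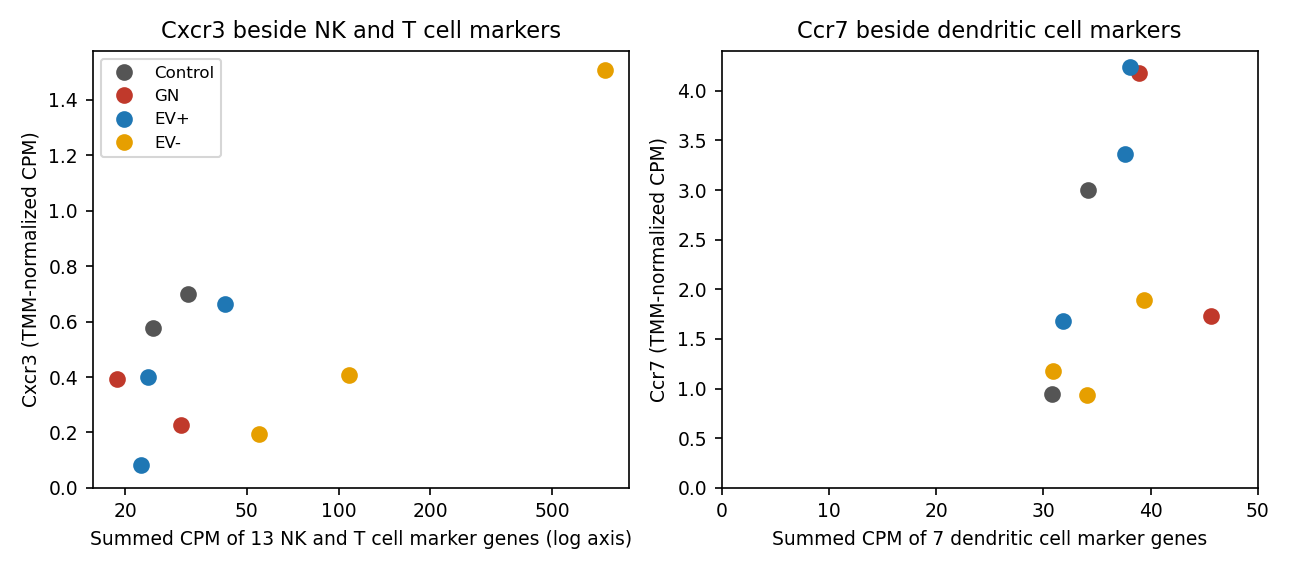
Left, *Cxcr3* in each library against the summed CPM of 13 NK and T cell markers on a log axis, where EV- replicate 1 lies apart at 743.8 CPM of markers and 1.51 CPM of *Cxcr3*. Right, *Ccr7* in each library against the summed CPM of 7 dendritic cell markers, which span 30.8 to 45.6 CPM.

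The comparison of EV+ with EV- macrophages asks what dye uptake marks within the same ASC-treated condition. By limma, 0 of 6 members were called, 1 (*Ccr7*) had an unadjusted p under 0.05, and edgeR's quasi-likelihood and likelihood-ratio tests and DESeq2 called 0 as well. Of all genes, 0.0222% were called, a count of 2 that became 5 with the replicate number as a block and 49 with that block in the 6 libraries alone. It was 57 by edgeR's likelihood-ratio test, 34 by DESeq2 and 0 to 5 with a library left out. No member was among the calls of any of these fits. The median difference was -0.015 over the members and -0.0077 over all genes. The difference was 0.017 for *Ccrl2* (95% interval -0.16 to 0.19) and -0.047 for *Cxcr4* (95% interval -0.27 to 0.17). Neither interval reaches a difference as large as that of the same gene between EV+ and control. Both intervals come from the main fit, which ignores the pairing by replicate number. Its SE was 0.0810 for *Ccrl2* and 0.102 for *Cxcr4*. With the block in the 6 libraries alone, the SE was 0.0480 and 0.0471, around the same differences. For *Ccr1* and *Cxcr3* the intervals reached from -0.67 to 0.49 and from -0.91 to 0.42.

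The comparisons of EV+ and EV- with GN set each dye-sorted fraction from ASC-treated nephritic rats against macrophages of untreated nephritic rats. They share the GN libraries. GN cells were not split by the dye, so ASC treatment and selection by dye uptake cannot be told apart in these comparisons. In each, limma called 0 of 6 members, 1 (*Ccrl2*) had an unadjusted p under 0.05, and both tests of edgeR and DESeq2 called 0. Of all genes, 0.122% were called in EV+ and 0.378% in EV-, and 7.13% and 7.85% had an unadjusted p under 0.05. The median difference of the members was 0.063 in EV+ and -0.056 in EV-, and that of all genes -0.011 and 0.00061.

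**Figure D4:**
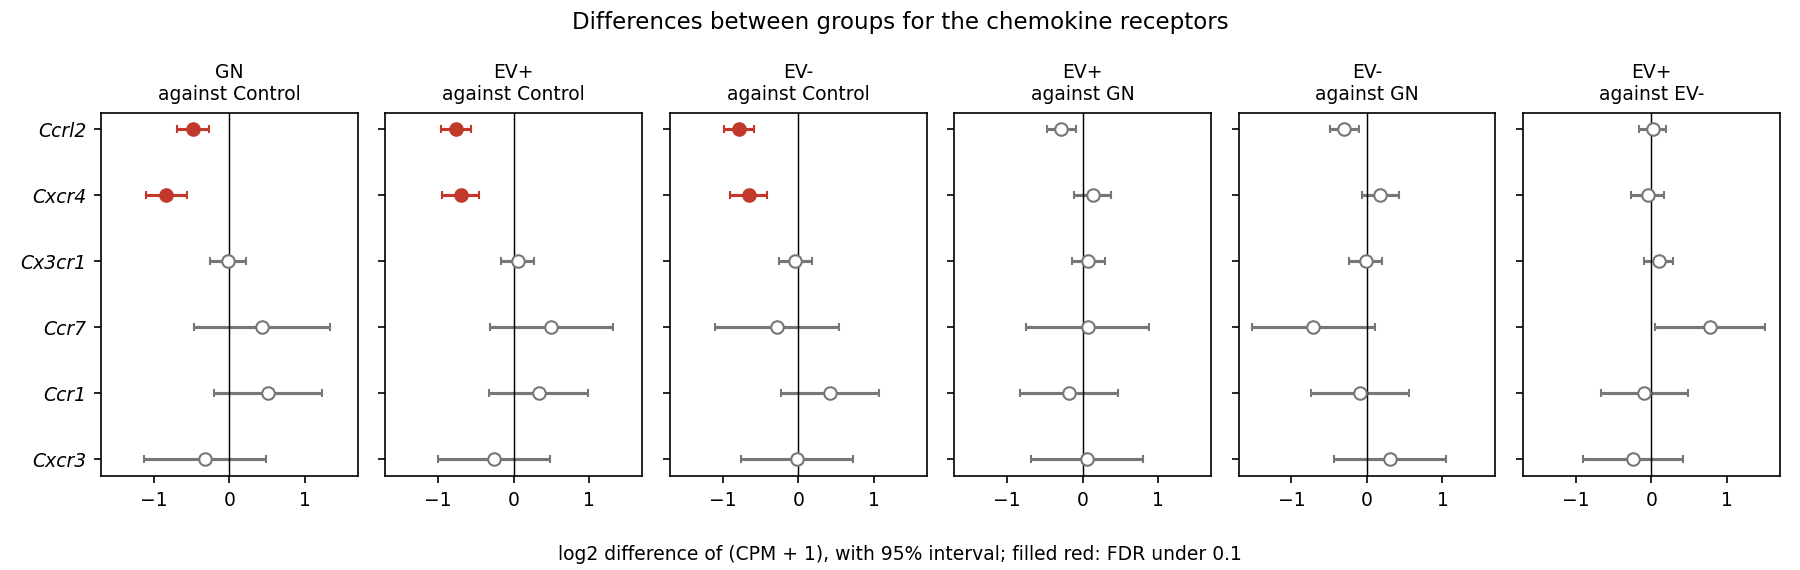
Log2 differences of (CPM + 1) for the 6 receptors in each of 6 comparisons, with 95% intervals. Filled red points passed an FDR under 0.1, which only *Ccrl2* and *Cxcr4* did, in the 3 comparisons with control.

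The ligands of these receptors were counted from a list of 18, of which 11 were in the table. Of these, 1 was called lower in GN than in control, *Ccl3*, which attracts cells through Ccr1. The share of all genes called lower there was 0.822%. Beside *Ccl3*, *Cxcl10* was called lower in EV+ than in control, and *Ccl2* and *Cxcl10* were called lower in EV- than in control. The share of all genes called lower than control was 1.81% in EV+ and 1.56% in EV-. Against GN, *Ccl2*, the main ligand of Ccr2, was called lower in EV-, and 0 were called in EV+ by limma (3 at an unadjusted p under 0.05, 0 by edgeR's quasi-likelihood test, 2 by its likelihood-ratio test and 2 by DESeq2). Limma called 0.378% of all genes between EV- and GN and 0.122% between EV+ and GN. Between EV- and GN, 9 of the 11 had an unadjusted p under 0.05 by limma, a level that 7.85% of all genes passed. *Ccl5* was among these 9 and went the other way, higher in EV- by 2.59 (SE 0.716). *Ccl24*, *Cxcl9*, *Cxcl11* and *Cxcl12*, also among these 9, had means of at most 2.401 CPM in GN and EV-. Of the 11, edgeR's quasi-likelihood test called 1, its likelihood-ratio test 4 and DESeq2 5. The median difference of the 11 genes was -0.10 between GN and control, -0.62 between EV+ and GN and -0.81 between EV- and GN. Between EV+ and EV- limma called 0 of the 11 (1 at an unadjusted p under 0.05, 0 by edgeR's quasi-likelihood test and 1 each by its likelihood-ratio test and DESeq2).

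Levels of *Ccl3* were 825 and 563 CPM in the control libraries and 325 CPM in both GN libraries. They were 214, 169 and 205 CPM in EV+ replicates 1, 2 and 3 and 253, 178 and 211 CPM in the EV- replicates. Its levels in the 3 nephritic groups lay below every control library. Nephritis without ASCs differed from control by -1.07 (SE 0.173, adjusted p = 0.00786 by limma). Set against GN, EV+ differed by -0.73 (adjusted p = 0.187) and EV- by -0.61 (adjusted p = 0.232), which did not pass. *Ccl2* had 35.2 ± 2.18 CPM in control, 39.4 ± 2.07 in GN, 23.1 ± 6.21 in EV+ and 19.6 ± 3.94 in EV-, with a difference of -0.99 between EV- and GN (adjusted p = 0.0833 by limma). *Cxcl10*, a ligand of Cxcr3, had a mean of 26.6 ± 7.84 CPM in control, 23.5 ± 0.269 in GN, 13.1 ± 4.55 in EV+ and 10.7 ± 2.70 in EV-. Its difference from control was -0.99 in EV+ (adjusted p = 0.0832 by limma) and -1.23 in EV- (adjusted p = 0.0357).

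*Cxcl12*, the ligand of Cxcr4, did not exceed 1.34 CPM in any library. *Cx3cl1*, the ligand of Cx3cr1, had no row and was not analysed here. *Ccl5*, a ligand of Ccr1 that NK and T cells make, had 126 CPM in EV- replicate 1 and 14.8 and 9.07 CPM in the other two EV- libraries. It had between 2.72 and 5.78 CPM in the libraries of the other groups. This order of the EV- libraries was also that of the NK and T cell markers, among which *Ccl5* is counted, and their part was not tested.

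Of 15 other chemokine receptors in a list that does not hold every member of the family, 5 were in the table. Of these, *Cmklr1*, the signalling receptor of chemerin, was called higher in GN than in control. The share of all genes called, in either direction, was 1.75% in this comparison and 3.63% between EV+ and control. The control libraries held 4.35 and 4.50 CPM of *Cmklr1* and the GN libraries 18.7 and 11.5 CPM. EV+ replicates 1, 2 and 3 held 17.2, 8.97 and 13.3 CPM, and the EV- replicates 11.3, 5.96 and 13.2 CPM. Every control library lay below all other libraries. Relative to control, *Cmklr1* differed by 1.53 in GN (SE 0.335, adjusted p = 0.0452 by limma), by 1.34 in EV+ (adjusted p = 0.0357) and by 0.98 in EV- (adjusted p = 0.154). *Cmklr1* rose in GN, the comparison in which *Ccrl2*, which presents chemerin to it, fell. Chemerin itself (*Rarres2*) had no row. Against GN, limma, both edgeR tests and DESeq2 called 0 of the 5 in EV+ and in EV-, and 0 had an unadjusted p under 0.05.

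Of 30 listed symbols for signalling and desensitization of chemokine receptors, 26 were in the table. Between GN and control 1 was called higher, *Gng2*, a G-protein gamma subunit, and 1 lower, *Rgs1*, a regulator that shortens G-protein signals. The share of all genes called there was 1.75%, with 0.822% lower. *Gng2* had 37.5 ± 2.07 CPM in control and 63.9 ± 7.04 in GN (difference 0.75, adjusted p = 0.0264 by limma). *Rgs1*, named after its values were seen, had a mean of 112 CPM in control and 60.6 in GN (difference -0.85, adjusted p = 0.0861). *Rgs2*, a regulator of the same family, was the 1 gene of this list that limma called against GN, with a difference of -0.59 in EV+ (adjusted p = 0.0156) and -0.53 in EV- (adjusted p = 0.0175). Its mean was 369 ± 2.67 CPM in control, 292 ± 7.90 in GN, 194 ± 5.90 in EV+ and 204 ± 21.9 in EV-. Limma called 0.122% of all genes between EV+ and GN and 0.378% between EV- and GN. Against control these shares were 3.63% in EV+ and 2.84% in EV-. Against control, *Gng2* was higher and *Rgs2* lower in both EV+ and EV-, and *Arrb2*, which encodes β-arrestin 2 and was named after its values were seen, was lower in EV+ (-0.31, adjusted p = 0.0624). The median difference of the 26 genes was -0.023 between GN and control. Between EV+ and EV-, limma called 0 of them, 1 had an unadjusted p under 0.05, and both edgeR tests and DESeq2 called 0.

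Of 18 other chemokine ligands, 4 were in the table. By limma 0 of them were called in any comparison. At an unadjusted p under 0.05, 0 passed between EV+ and GN, 2 between EV- and control and 1 in each of the other 4 comparisons of 2 groups. Of these 6 comparisons, DESeq2 called 1 gene between GN and control and edgeR's likelihood-ratio test 1 between EV- and control, and its quasi-likelihood test called 0.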

How the data were processed

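Splenic M2 macrophages of 4 groups were analysed in 10 libraries. Per the labels and the methods, the authors aligned paired-end reads to rn6 with STAR (version 2.5.3), counted them on RefSeq genes with HTSeq (version 0.6.0), removed genes under 1 CPM in all samples and applied TMM normalization in edgeR. The deposited signal is TMM-normalized CPM. Each value was a whole multiple of 1 read (100% of values, tolerance 0.02 reads), so reads were recovered. On these reads, edgeR's quasi-likelihood test called 147 genes between GN and control, where limma called 158. Without molecular identifiers, read floors cover counting error only. Of the symbols, 18 had become dates and could not be named. Between replicates of a group the chi-square of reads was 13.5 to 46.0 times its degrees of freedom, well over sampling noise.

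Because the values are normalized, limma (version 3.58.1, R version 4.3.3) was the main test, on log2(CPM + 1) with an intensity trend and 6 residual degrees of freedom. It replaces the generalized linear models of the methods. Alternatives on the recovered reads used edgeR (version 4.0.16; quasi-likelihood, likelihood-ratio, RLE) and DESeq2 (version 1.42.0). Others were pseudocounts of 0.1 and 0.5, at least 1 CPM in at least 2 libraries, no trend, an FDR of 0.05, only the groups compared, each library left out, and the replicate number as a block. A block in the 6 EV+ and EV- libraries alone was added after the data were seen. Across genes, deviations from the group mean gave r of 0.203, 0.295 and 0.123 for EV+ and EV- libraries that share a number. The numbers were therefore taken as pairing them in the block fits. The main fit did not use this pairing. The labels do not state a pairing. The procedures were also run on simulated data, with independent libraries and shifts in control only. The outcome is not given here, so that run lends no support to the calls.

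The members and all gene lists were chosen with earlier results of these data known. Named are all members, up to 4 genes per list with the lowest FDR among the 4 groups, ligands of members, and the 2 genes most like each member with a mean of at least 1 CPM. Promoter windows came from RefSeq (GRCr8). No genome of the files' build was used here.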

Additional observations from a re-analysis of the deposited data

How the results depend on the processing

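Of 147 counts of called members recomputed under an alternative, 139 were within 1.5 times of the reported count and 8 were lower. Without the intensity trend, 1 member in place of 2 was called between GN and control, between EV- and control and among the 4 groups. Leaving out single libraries gave 1 to 2 members in each of these 3 comparisons. With 1 library left in a group, it was assumed to vary like the others. Many recomputed values could not move. A difference stays the same when the library left out is in neither group compared. It also stays the same when only the trend, the filter or the threshold is changed. A count of 0 could only stay at 0 or rise. The tallies of counts and differences are therefore no measure of how firm a result is. Of 381 recomputed differences of single members, 365 kept their direction and side of the threshold, 6 lost their call and 10 changed sign, all 10 when a library was left out of a difference that had not been called. Over the libraries left out, the difference between EV+ and EV- ranged from -0.048 to 0.095 for *Ccrl2*, from -0.16 to 0.037 for *Cxcr4* and from -0.46 to 0.071 for *Cxcr3*, and that between GN and control from -0.12 to 0.068 for *Cx3cr1* and from -0.090 to 0.95 for *Ccr7*. With the replicate number as a block, 2 members were called between GN and control, and in EV+ and EV- against control, and 0 between EV+ and EV-, also in the 6 libraries alone, so that the pairing changed no call of a member. The cause of these changes was not tested. *Ccr1* and *Cxcr3* had at most 31 reads in a library. The difference of *Ccr1* between GN and control ranged from 0.31 to 0.72 over the libraries left out and reached 1.73 under other alternatives. Over all genes, 158 were called between GN and control, against 294 by DESeq2, 292 by edgeR's likelihood-ratio test, 60 without the trend and 34 to 214 with a library left out. Between EV+ and control these counts were 327, 540, 516, 186 and 114 to 390, and 155 with only the groups compared. Between EV- and control they were 256, 474, 444, 94 and 95 to 388. Among the 4 groups they were 231, 543, 616, 93 and 97 to 266. Against GN, EV+ had 11 genes called (41 by DESeq2, 43 by the likelihood-ratio test, 0 without the trend, 30 with the block) and EV- 34 (113, 126, 6 and 53). Without GN replicate 1 these counts were 2 in EV+ and 7 in EV-, without GN replicate 2 they were 0 and 12, and over all libraries left out 0 to 18 and 7 to 42.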
